A study of Mus musculus with 7 samples.

Results

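Smooth muscle cells (SMCs) were one of the least common labelled populations of the developing mouse heart. Of 52802 cells kept from the wild-type hearts of 2 mouse strains, 343 carried the final label of SMCs, 182 of 27445 in CD1 and 161 of 25357 in C57BL/6. They were taken as every cell with that label after 79 C57BL/6 cells marked for exclusion had been removed. No threshold on a measured value was added here. The name of the C57BL/6 label refers to a gene threshold, which was not examined.

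The hearts came from untreated, wild-type embryos and pups, and every sample was a pool of several hearts of 1 stage, cut into 4 zones, which were the left and right atria (LA and RA) and the left and right ventricles (LV and RV). CD1, an outbred strain, was sampled at 18 stages from embryonic day E9.5 to postnatal day P9, and C57BL/6, an inbred strain, at 17 stages from E10.5 to P9. The 140 samples of 1 stage and 1 zone were tagged with lipid-anchored DNA barcodes, mixed, and captured as single cells in 5 experiments named by their first and last stage: E9.5_P3, E18_P1 and P2_P9 for CD1, and E10.5_P4 and P5_P9 for C57BL/6. The atrioventricular canal and the ventricular septum were collected with the LV, so LV samples hold those tissues too. Each stage of each strain was 1 pool of hearts, except CD1 P1 and P2, which were each present in 2 experiments. The p-values below therefore measure the spread between stages and not between hearts.

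SMCs form the contractile wall of arteries and veins, and in the heart they coat the coronary arteries. Pericytes sit on capillaries and small vessels. Both are mural cells, the cells that wrap endothelial tubes, and in the heart both derive largely from the epicardium by way of mesenchymal progenitors. Myh11, the smooth muscle myosin heavy chain, and Acta2, the smooth muscle actin, are the usual SMC genes, and Pdgfrb, a receptor for platelet-derived growth factor, marks pericytes. The tables used here hold a label and summary measures for each cell and no gene values, so the levels of Myh11, Acta2 and Pdgfrb in the labelled cells were not analysed here.

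The SMC labels followed the clusters from which the authors drew them. All 182 CD1 SMCs lay in 1 cluster of 540 cells, together with 341 pericytes and 17 other cells. In C57BL/6, 160 of the 161 SMCs lay in 1 cluster of 551 cells, with 368 pericytes and 23 other cells. Within the fibroblast-like group the SMCs made up the whole of 1 sub-cluster in each strain, of 182 and 161 cells. The separation of SMCs from pericytes thus rests on the second round of clustering. Cell barcodes found in more than 1 well of a strain were rare: 153 of 27445 CD1 cells and 126 of 25357 C57BL/6 cells had one, among them 1 SMC in each strain. The median total per cell ranged from 13366 to 20279 unique molecular identifiers (UMIs, counted RNA molecules) over the wells of CD1 and from 9176 to 15433 over those of C57BL/6.

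SMCs were met singly or not at all through mid gestation and became regular members of the heart from E16.5 in CD1 and E17.5 in C57BL/6. In CD1 no SMC was found among 182 non-myocytes at E9.5, which allows a share of up to 1.65%, or among 275 at E10.5, which allows up to 1.09%. The first labelled cell came at E11.5, and E12.5, E13.5 and E14.5 each held 1 more. E15.5 held 3 SMCs, E16.5 held 12 and E17.5 held 19. In C57BL/6 no SMC was found at E10.5, E11.5 or E12.5, where 0 of 331, 0 of 197 and 0 of 1013 non-myocytes allow shares of up to 0.906%, 1.52% and 0.296%. A single SMC was found among 3585 non-myocytes at E13.5, none among 443 at E14.5 (up to 0.677%), 2 at E15.5, 2 at E16.5 and 16 at E17.5. These limits and the intervals below cover counting error only.

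Up to and including E15.5, SMCs were 7 of 3002 non-myocytes in CD1, or 0.233% (95% exact binomial interval 0.0938 to 0.48%), and 3 of 6506 in C57BL/6, or 0.0461% (0.00951 to 0.135%). Pericytes were already present then. The first stage with at least 5 pericytes was E13.5 in both strains, and 50 pericytes in CD1 and 74 in C57BL/6 were found up to E15.5. The first stage with at least 5 SMCs came 3 days later in CD1 (E16.5, 12 SMCs) and 4 days later in C57BL/6 (E17.5, 16 SMCs). Pooled up to and including E15.5, SMCs were 12.3% of mural cells in CD1 (5.08 to 23.7%) and 3.9% in C57BL/6 (0.811 to 11.0%).

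The 10 early cells were not all found where later SMCs were. In CD1 the single cells of E11.5 and E12.5 were in the LA and that of E13.5 was in the RA, while none was found among 485 ventricular non-myocytes at E13.5. The E14.5 cell was in the LV, and of the 3 cells of E15.5, 2 were in the LV and 1 in the LA. The 3 early C57BL/6 cells were all ventricular, with 2 in the RV and 1 in the LV. Their totals ranged from 4412 to 21881 UMIs. The CD1 E14.5 cell had a doublet score above that of 96.9% of the non-myocytes of its well, and 1 of the 2 C57BL/6 E15.5 cells above that of 95.1%. The other 8 lay above 10.1 to 75.8% of them.

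As a share of non-myocytes, SMCs rose with stage in both strains. The share was computed in each zone with at least 10 non-myocytes and the zone values of each stage were then averaged. This gives a zone with few cells the weight of one with many. At C57BL/6 E13.5 and P8 the LA was below this minimum, so those means cover the RA, LV and RV only. In CD1 the 10 embryonic stages had a lowest value of 0%, a median of 0.669% and a highest value of 2.61% at E16.5. The 8 postnatal stages ran from 2.33% at P0 through a median of 3.58% to 5.99% at P9. Only E16.5 and E17.5 reached into the postnatal range.

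In C57BL/6 the 9 embryonic stages ran from 0% through a median of 0.0104% to 2.99% at E17.5, and the 8 postnatal stages from 1.10% at P1 through a median of 2.93% to 5.59% at P4. E17.5 and E18.5 lay inside the postnatal range. The line of means by stage shows a step between E15.5 and E17.5 and a slower, uneven climb afterwards.

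**Figure D1:**
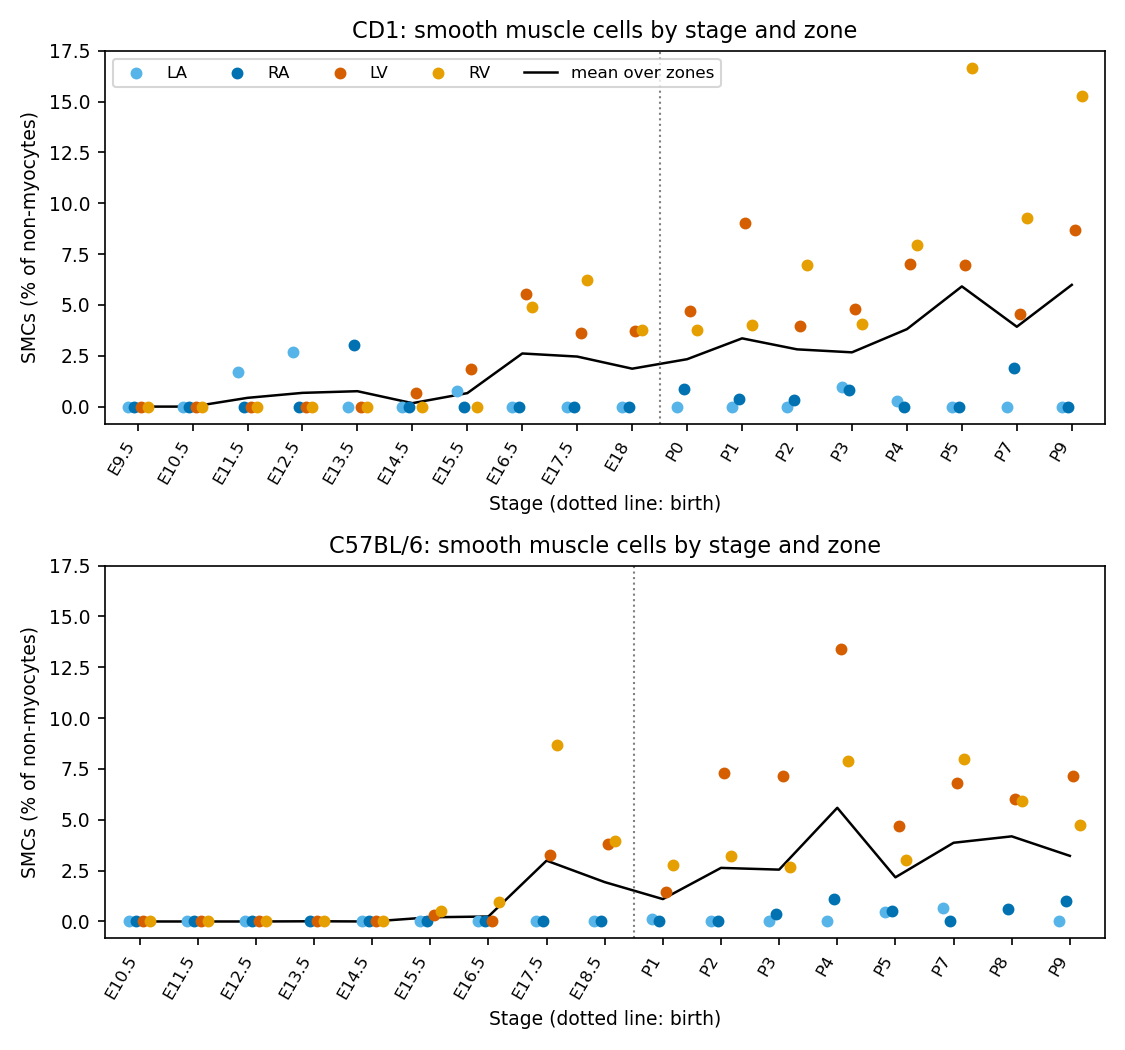
SMCs as a percentage of non-myocytes (y axis) at each stage (x axis) in CD1 (top) and C57BL/6 (bottom). Points are zones with at least 10 non-myocytes, and the black line is their mean. From E17.5 on, all LV and RV points are above 0, from 1.47% in the C57BL/6 LV at P1 to 16.7% in the CD1 RV at P5. Over the same stages the LA and RA points stay at or below 1.90%.

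Across stages, Spearman's rho between stage order and the share was 0.95 in CD1 (18 stages, permutation p = 1e-05, the smallest that the permutations can give) and 0.90 in C57BL/6 (17 stages, permutation p = 2e-05). Both had an adjusted p of 4e-05 after Benjamini-Hochberg correction over 4 relations. Pearson's r was 0.93 in CD1 (permutation p = 1e-05) and 0.84 in C57BL/6 (permutation p = 5e-05). Without the 2 stages farthest from the middle stage, r was 0.90 and 0.84. Within the largest experiment of each strain, which held 13 stages, rho was 0.90 for E9.5_P3 (permutation p = 8e-05) and 0.91 for E10.5_P4 (permutation p = 7e-05). The other 3 experiments held too few stages for this test. Without E9.5_P3, the 7 remaining CD1 stages gave a rho of 0.71 that did not pass (exact permutation, adjusted p = 0.117).

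The postnatal mean was 3.85% ± 1.41 (SD, n = 8 stages) against 0.963% ± 0.987 (n = 10) in CD1, a difference of 2.89 percentage points (exact permutation p = 0.000137, adjusted p = 0.000548 over 4 comparisons). In C57BL/6 it was 3.17% ± 1.38 (n = 8) against 0.599% ± 1.09 (n = 9), a difference of 2.57 points (exact permutation p = 0.00111, adjusted p = 0.00222). The difference was 2.23 points within E9.5_P3 (permutation p = 0.00559) and 2.37 points within E10.5_P4 (permutation p = 0.00979). With the zones of a stage pooled, which weights them by their cells, the differences were 1.90 points in CD1 and 1.63 points in C57BL/6 (both adjusted permutation p = 0.00622). In the ventricles alone they were 5.84 and 4.57 points (adjusted permutation p = 0.00137 and 0.00366). With the embryonic stages before E15.5 left out, the differences were 1.95 and 1.82 points and neither passed (both adjusted p = 0.0727, exact permutation). The last 2 settings were chosen after seeing the data.

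Pericytes, averaged over zones in the same way, were up to 5.90% of non-myocytes before birth in CD1, at E18, and between 3.67 and 6.52% after it. In C57BL/6 they were up to 7.49% before birth, at E18.5, and between 2.56 and 8.30% after it. The SMC share of mural cells rose with stage in both strains. In CD1, over the 14 stages with at least 10 mural cells, the SMC share of mural cells ran from 7.69% at E13.5 to 38.8% at E17.5 before birth and from 29.4% at P5 to 54.3% at P9 after it. In C57BL/6 it ran from 0% at E14.5 to 32.7% at E17.5 and then from 19.7% at P1 to 56.6% at P4. The ranges before and after birth overlapped in both strains.

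Mean values were 39.7% ± 9.02 (SD, n = 8 postnatal stages) against 21.0% ± 13.3 (n = 6 embryonic stages) in CD1, with an exact permutation p of 0.00932, which was also the adjusted p. In C57BL/6 they were 39.6% ± 13.6 (n = 8) against 12.3% ± 12.2 (n = 6), with an exact permutation p of 0.00466 and an adjusted p of 0.00622. Against stage order, rho was 0.68 in CD1 (adjusted permutation p = 0.00923, r = 0.75 with permutation p = 0.00201) and 0.74 in C57BL/6 (adjusted permutation p = 0.00483, r = 0.76 with permutation p = 0.00225). Without the 2 most distant stages, r was 0.59 and 0.64. Within E9.5_P3 rho was 0.88 over 8 stages (exact permutation p = 0.00724), and within E10.5_P4 it was 0.93 over 10 stages (permutation p = 0.00041). From E15.5 on, rho was 0.49 in CD1 and 0.59 in C57BL/6 and the postnatal differences were 12.6 and 22.2 points, and none of the 4 passed (adjusted permutation p from 0.061 to 0.11). In CD1 rho also fell short without E9.5_P3 (0.46, adjusted p = 0.302, exact permutation) and with no minimum of mural cells (0.49, adjusted permutation p = 0.0604), and the postnatal difference with at least 20 mural cells or without P2_P9 (adjusted p = 0.0545 and 0.0524, exact permutation). The postnatal difference within E9.5_P3 was 16.1 points over 8 stages and did not pass (exact permutation p = 0.125), and within E10.5_P4 it was 29.7 points over 10 stages (exact permutation p = 0.019).

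**Figure D2:**
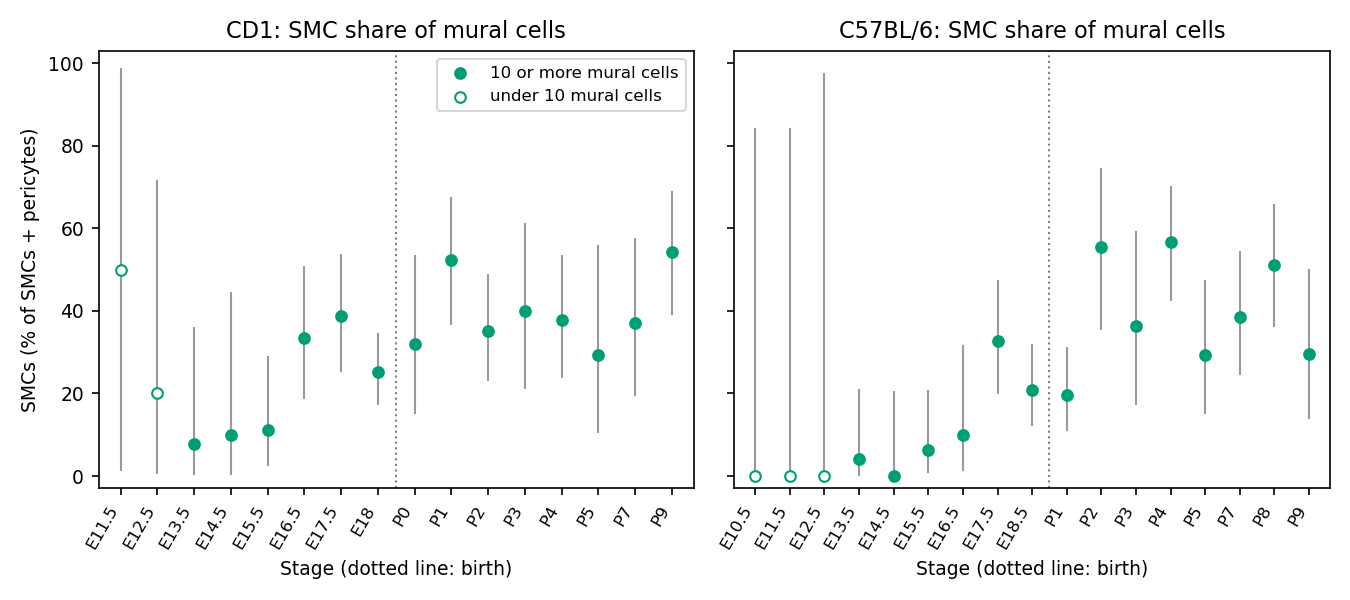
SMCs as a percentage of mural cells (SMCs plus pericytes, y axis) by stage (x axis), zones pooled, with 95% exact binomial intervals. Filled points have at least 10 mural cells, and open points fewer. Values rise from 7.69% at E13.5 in CD1 and 0% at E14.5 in C57BL/6 to highest values of 54.3% at P9 and 56.6% at P4, and the intervals of neighbouring stages mostly overlap.

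Single steps between neighbouring stages were not tested, but most of their counting intervals overlapped. The intervals of the pooled share of non-myocytes were apart in none of the 17 pairs of consecutive CD1 stages and in 1 of the 16 C57BL/6 pairs. Those of the share of mural cells were apart in none of the 15 CD1 pairs with mural cells at both stages and in 1 of the 16 C57BL/6 pairs. Overlap does not show that a step lies within counting error, and CD1 P7 and P9, with 10 of 385 and 25 of 364 non-myocytes, are among the overlapping pairs. The C57BL/6 pair that stood apart was P1, with 13 SMCs among 1450 non-myocytes (0.897%), and P2, with 15 among 362 (4.14%). For the share of mural cells too it was P1 and P2, at 19.7 and 55.6%. SMCs outnumbered pericytes at no embryonic stage, at P1 and P9 in CD1 and at P2, P4 and P8 in C57BL/6. They equalled them once, at CD1 E11.5, with 1 cell each.

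Set against vascular endothelial cells, whose tubes they surround, SMCs rose as well. At stages with at least 10 vascular endothelial cells there were 1.32 to 15.8 SMCs per 100 vascular endothelial cells before birth in CD1 (8 stages, median 6.81) and 9.52 to 50 after birth (8 stages, median 26.1). In C57BL/6 there were 0 to 15.8 before birth (7 stages, median 2.08) and 8.07 to 42.9 after it (8 stages, median 12.3). That postnatal median lay below the values of E17.5 and E18.5, which were 14.3 and 15.8. With only SMCs and vascular endothelial cells in the denominator, rho against stage was 0.88 over 14 CD1 stages and 0.85 over 15 C57BL/6 stages (both adjusted permutation p = 0.00026), in an alternative chosen after seeing the data.

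CD1 P1 and P2 were each captured in 2 experiments and give the only repeats of a stage. At P1 the share of non-myocytes was 18 of 460 in E18_P1, or 3.91% (95% interval 2.34 to 6.11%), and 5 of 341 in E9.5_P3, or 1.47% (0.478 to 3.39%). The zones were mixed differently, with 171 LV non-myocytes in the first and 39 in the second. At P2 it was 13 of 823 in P2_P9, or 1.58% (0.844 to 2.69%), and 7 of 359 in E9.5_P3, or 1.95% (0.787 to 3.98%). The SMC share of mural cells was 51.4 and 55.6% at P1 and 34.2 and 36.8% at P2. All 4 pairs had overlapping intervals. Wells of 1 experiment hold the same mixture, and their spread is technical, counting error included. The 5 wells of E9.5_P3 were loaded for different numbers of cells and held 9 to 21 SMCs each. Their shares ran from 0.831 to 2.02% (1.28% ± 0.456, SD), and those of the 4 wells of E10.5_P4 from 0.732 to 0.918% (0.854% ± 0.0875).

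SMCs were mostly ventricular cells. The ventricles gave 168 of the 182 CD1 SMCs (92.3%) and 140 of the 161 C57BL/6 SMCs (87.0%), but only 46.6 and 56.3% of the non-myocytes. Pericytes were distributed in much the same way, with 88.5 and 87.3% in the ventricles. After birth SMCs were 6.81% of ventricular non-myocytes in CD1 (108 of 1585, interval 5.62 to 8.17%) and 0.306% of atrial ones (10 of 3266, 0.147 to 0.562%). In C57BL/6 they were 5.42% in the ventricles (104 of 1918, 4.45 to 6.53%) and 0.441% in the atria (21 of 4765, 0.273 to 0.673%). Each of the 16 postnatal ventricular samples of each strain held at least 1 SMC. Of the 16 postnatal atrial samples, 7 in CD1 and 8 in C57BL/6 did.

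Before birth, SMCs were 60 of 3191 ventricular non-myocytes in CD1, or 1.88% (1.44 to 2.41%), and 36 of 6797 in C57BL/6, or 0.53% (0.371 to 0.733%). The atria held 4 of 2217 in CD1, or 0.18% (0.0492 to 0.461%). In C57BL/6 the atria held 0 of 2005 embryonic non-myocytes, which allows a share of up to 0.15%. Embryonic atria held few mural cells of either kind, with 3 pericytes in CD1 and 9 in C57BL/6.

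Paired by stage, the mean share of the 2 atria was below that of the 2 ventricles in CD1, with a difference of -3.73 percentage points (0.383% ± 0.506 against 4.11% ± 3.90, SD, n = 18 stages, sign-flip permutation p = 0.0007, adjusted p = 0.00264 over 6 comparisons). The ventricles were higher at 13 stages, the atria at 3 stages, and both were at 0 at 2. In C57BL/6 the difference was -3.25 points (0.143% ± 0.215 against 3.39% ± 3.31, n = 15 stages, sign-flip permutation p = 0.00088, adjusted p = 0.00264). There the ventricles were higher at 11 stages and both were at 0 at 4. The 3 stages with a higher atrial share were CD1 E11.5, E12.5 and E13.5, with 1 SMC each.

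The ventricles were also the higher side within every experiment. The mean of atria minus ventricles was -2.21 points in E9.5_P3 (13 stages, sign-flip permutation p = 0.0281), -5.80 points in E18_P1 (2 stages, exact permutation p = 0.5) and -8.27 points in P2_P9 (5 stages, exact permutation p = 0.0625). It was -2.74 points in E10.5_P4 (12 stages, permutation p = 0.00795) and -5.29 points in P5_P9 (3 stages, exact permutation p = 0.25). Without E9.5_P3 the CD1 difference was -7.57 points, and without P2_P9 it was -2.43 points (adjusted permutation p = 0.0469 and 0.0426). The 3 p-values of the smaller experiments are the smallest that their numbers of stages allow. Postnatal LV and RV suspensions, unlike atrial ones, passed an extra coarse strainer, and the part of that step in these shares was not tested. The size of the atrial-ventricular difference was not shown to differ between strains. CD1 minus C57BL/6 was -0.476 points over 33 stage values (permutation p = 0.719). This value depended on the experiments used. It was -4.31 points and passed without E9.5_P3 (permutation p = 0.00858), and it turned to 0.823 points without P2_P9, 1.56 points without E10.5_P4 and 0.609 points with at least 20 non-myocytes in each zone, none of which passed.

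**Figure D3:**
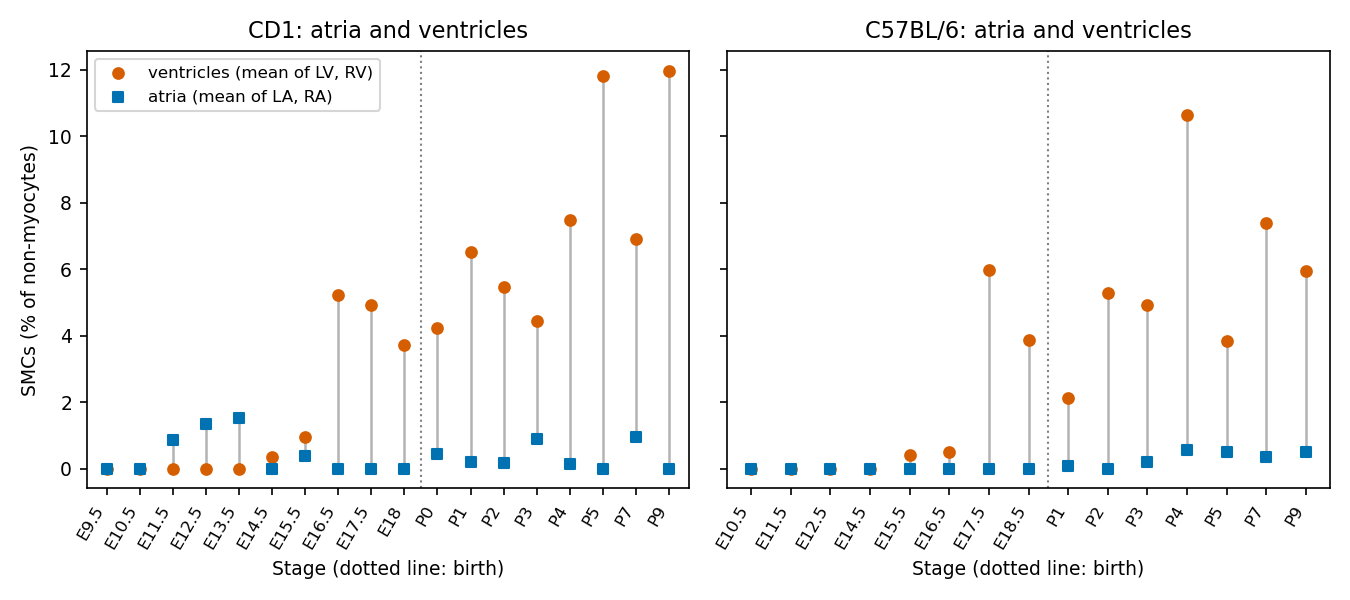
SMCs as a percentage of non-myocytes (y axis) in the atria (mean of LA and RA, squares) and the ventricles (mean of LV and RV, circles) at each stage (x axis) where all 4 zones had at least 10 non-myocytes. Grey lines join the 2 values of a stage. From E16.5 on in CD1 and E15.5 on in C57BL/6 the ventricular point is above the atrial one at every stage shown.

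Left and right sides did not differ past the threshold. The LA-RA difference averaged -0.0474 points in CD1 (18 stages, adjusted permutation p = 0.862) and -0.114 points in C57BL/6 (15 stages, adjusted permutation p = 0.502). The LV-RV difference averaged -0.982 points with an SD of 3.34 in CD1 (18 stages, LV higher at 6 and RV at 7, adjusted permutation p = 0.482) and 0.522 points with an SD of 2.55 in C57BL/6 (17 stages, LV higher at 6 and RV at 7, adjusted permutation p = 0.502). The CD1 mean joined experiments of opposite sign. LV minus RV was 1.21 points in E9.5_P3 (13 stages, permutation p = 0.149) and -5.31 points in P2_P9, where the RV was higher at 5 of 5 stages (exact permutation p = 0.0625, the smallest that 5 stages allow). The highest RV shares of that experiment were 16.7% at P5, from 2 SMCs among 12 non-myocytes, and 15.3% at P9, from 9 among 59 (interval 7.22 to 27.0%).

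As a share of mural cells, SMCs were not shown to differ between atria and ventricles. With at least 5 mural cells on both sides, 4 CD1 stages gave 24.3% ± 12.45 (SD) in the atria and 38.4% ± 4.30 in the ventricles, a difference of -14.1 points (exact permutation p = 0.25, adjusted p = 0.438). The 5 C57BL/6 stages gave 38.6% ± 13.7 and 42.8% ± 11.9, a difference of -4.21 points (exact permutation p = 0.438, adjusted p = 0.438). The smallest p that 4 stages allow is 0.125 and that 5 stages allow is 0.0625, so neither comparison could pass.

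The 2 strains could be set side by side at 15 stages of the same name. The SMC share of non-myocytes averaged 2.42% ± 1.96 (SD) in CD1 and 1.64% ± 1.79 in C57BL/6. The difference of 0.776 points, with CD1 higher at 12 stages, lower at 2 and equal at 1, did not pass (sign-flip permutation p = 0.0537, adjusted p = 0.107 over 2 shares). At P4 the C57BL/6 value was the higher, 5.59 against 3.81%, and without P4 the difference passed at 0.959 points. Without experiment P2_P9 it passed too, at 0.79 points (11 stages, adjusted permutation p = 0.0275). The SMC share of mural cells was 5.66 points higher in CD1 over 12 stages (32.2% ± 15.4 against 26.6% ± 19.0, adjusted permutation p = 0.251).

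The 2 strains followed each other over these stages in the share of non-myocytes (rho = 0.84, adjusted permutation p = 0.00038, r = 0.72 with permutation p = 0.00262). Without P5 and P9, the 2 stages whose CD1 share lay farthest from the CD1 median, r was 0.82. The relation between strains spans the step before birth. Over the 6 common stages left without E9.5_P3, rho was -0.31 (exact permutation, adjusted p = 0.803). Strain, experiment and digestion cannot be told apart, since no experiment held both strains. The cells of each strain were also clustered and labelled apart, so labelling cannot be told apart from strain either.

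SMCs had low UMI totals. The median SMC had 7176 UMIs and 2676 detected genes in CD1 and 6078 UMIs and 2195 genes in C57BL/6. Fibroblast-like cells, the group from which SMCs were split, had median totals of 12952 and 10010 UMIs. At each of the 11 CD1 and 10 C57BL/6 stages with at least 5 SMCs, the SMC median was below the fibroblast-like median in UMIs and in genes. The median ratio over stages was 0.548 for UMIs in CD1 and 0.617 in C57BL/6. Cell labels come from the same transcripts that these totals count, so these comparisons are descriptions without a test.

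Pericytes were closer. Their medians were 8091 UMIs in CD1 and 8088 in C57BL/6, and the SMC median exceeded theirs at 7 of 11 CD1 stages and at 2 of 10 C57BL/6 stages. The share of UMIs from mitochondrial genes was mostly higher in SMCs than in pericytes. It had a median of 5.87% in SMCs and 4.93% in pericytes of CD1, and of 5.02 and 3.93% in C57BL/6. SMCs were above pericytes at 10 of 11 CD1 stages and 9 of 10 C57BL/6 stages, and above fibroblast-like and vascular endothelial cells at every one. SMCs were not the highest of all types: endocardial cells, which line the chambers, were above them at 7 of 11 CD1 and 4 of 10 C57BL/6 stages, and atrial cardiomyocytes at every one. The exceptions among pericytes were CD1 E16.5 (5.83% in SMCs and 5.91% in pericytes) and C57BL/6 E17.5 (4.97 and 5.08%), the first stages with 5 SMCs in each strain.

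Ribosomal protein genes showed the opposite order between SMCs and pericytes. They took a median of 14.6% of the UMIs of CD1 SMCs and 18.4% of those of pericytes, and 16.2 and 20.1% in C57BL/6. The SMC value was the lower at all 11 CD1 and all 10 C57BL/6 stages, with median ratios over stages of 0.897 and 0.864. Doublet scores did not single SMCs out. Ranked among all cells of their well, the median SMC stood at 30.7% in CD1 and 34.6% in C57BL/6, and 3.85 and 5.59% of SMCs were in the top 10% of scores.

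**Figure D4:**
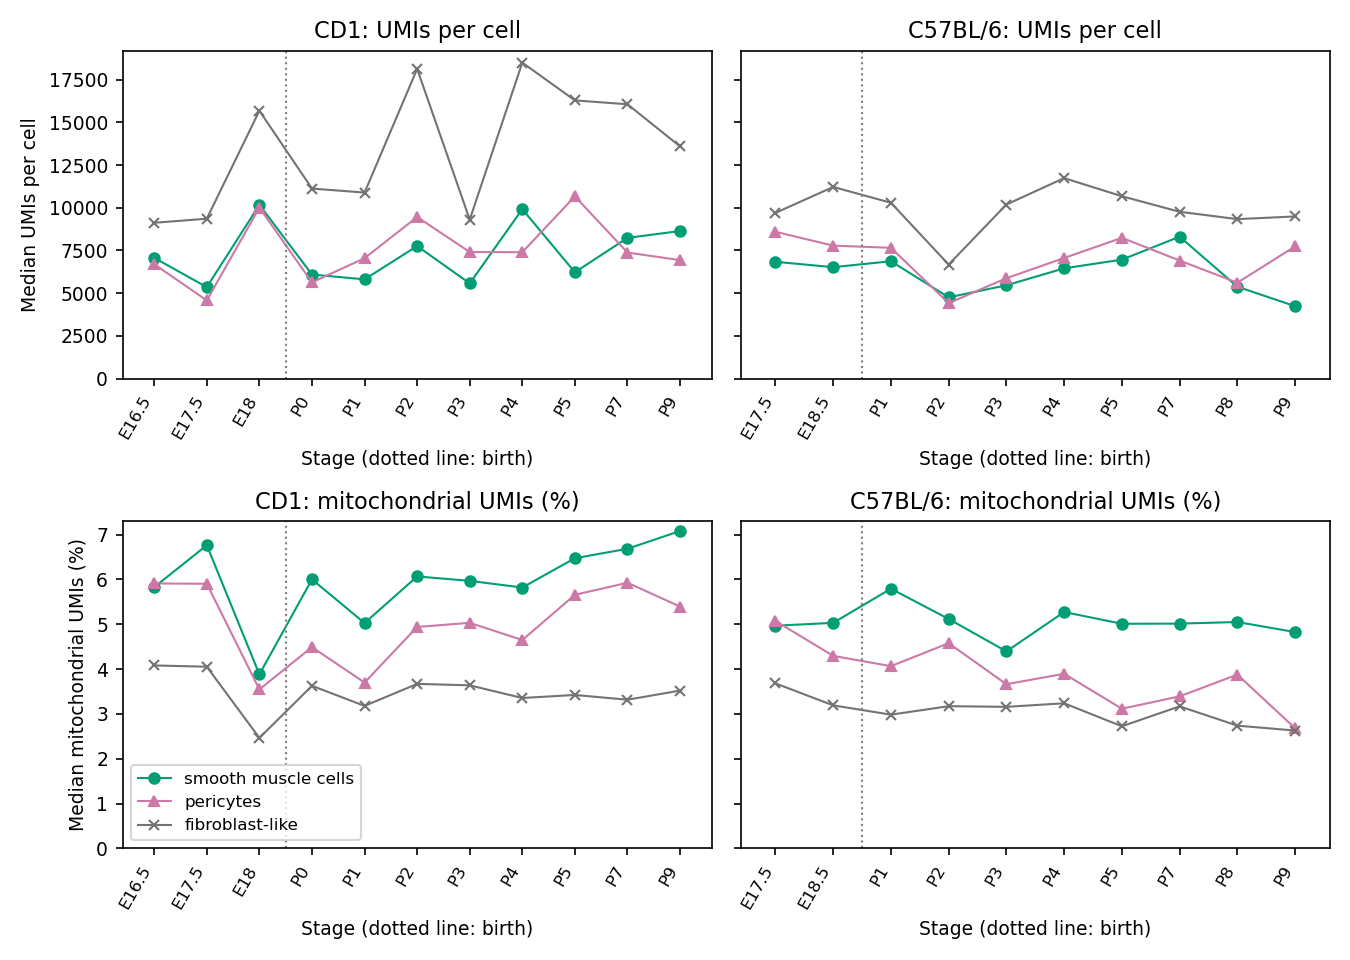
Median UMIs per cell (top row) and median percentage of UMIs from mitochondrial genes (bottom row) for SMCs, pericytes and fibroblast-like cells, at the stages (x axis) with at least 5 SMCs in CD1 (left) and C57BL/6 (right). SMC totals lie near those of pericytes and below those of fibroblast-like cells, while the mitochondrial percentage of SMCs is above that of fibroblast-like cells at every stage shown.

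Over stages, these measures did not move in 1 direction past the threshold. Stage medians of SMC totals ran from 5354 UMIs at E17.5 to 10173 at E18 in CD1 and from 4237 at P9 to 8308 at P7 in C57BL/6. E18 was captured in another experiment than E17.5, and the pericyte median moved with it, from 4575 to 10009 UMIs. The part of the experiment in that step was not tested. The rank correlation (Spearman) between stage and median UMIs was 0.33 in CD1 (11 stages) and -0.26 in C57BL/6 (10 stages), each with an adjusted permutation p of 0.608 over 6 relations. Detected genes gave the largest of the 6 coefficients, a rho of -0.70 in C57BL/6 (permutation p = 0.03, adjusted p = 0.18, r = -0.71 with permutation p = 0.02). Within E10.5_P4 it was -0.77 over 6 stages (exact permutation p = 0.103). In CD1 the same rho was 0.20 (adjusted permutation p = 0.608).

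The mitochondrial percentage of SMCs had a rho of 0.45 in CD1 (adjusted permutation p = 0.522) and -0.19 in C57BL/6 (adjusted permutation p = 0.608). Stage medians lay between 3.88% at E18 and 7.08% at P9 in CD1 and between 4.40% at P3 and 5.79% at P1 in C57BL/6. Over the 7 CD1 stages of the other 2 experiments, without E9.5_P3, rho was 0.96 (exact permutation p = 0.00278, adjusted p = 0.0167). Here E18 and P1 came from E18_P1 and the later stages from P2_P9, with SMC medians of 4.01 and 6.47%. Stage order and experiment cannot be told apart between these groups of stages. Within E9.5_P3 rho was 0.09 over 6 stages (exact permutation p = 0.919).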

How the data were processed

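Single-cell RNA-seq (10x Genomics 3′ chemistry, 12 wells in 5 experiments) was analysed from per-cell tables. The authors aligned reads with Cell Ranger 3.1.0 to GRCm38.p4, assigned cells to stage and zone by their lipid-anchored barcodes, removed within-sample doublets with scds, and filtered cells. The deposited cells had at least 2000 UMIs, 1000 to 7987 genes and at most 30.0% mitochondrial UMIs. They were integrated with Harmony, clustered with Seurat and labelled by the authors. Digestion time was not the same for every sample, and postnatal tissue was pipetted vigorously, so shares are of recovered cells. The deposited UMI totals and detected genes are raw counts per cell. The deposited mitochondrial and ribosomal protein values are a percent of a cell's UMIs, and the deposited scds doublet score has no fixed range. The other 47 columns of each table, which hold further quality measures, embeddings and intermediate labels, and the tables of the mutant experiments were not used.

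SMCs and pericytes were taken from the authors' final labels, and non-myocytes were all cells not labelled as atrial or ventricular cardiomyocytes. Shares of non-myocytes were computed per zone with at least 10 non-myocytes and averaged by stage. Shares of mural cells were computed over pooled zones with at least 10 mural cells, or at least 5 on each side for zones. The stage was the unit of every test. Permutation tests were two-sided, exact for few values and otherwise with 100000 resamples, adjusted by Benjamini-Hochberg within each family with a threshold of 0.05. Intervals are exact binomial (Clopper-Pearson, 95%), and a count of 0 was given a limit of 3 counts. The tests were checked on simulated independent normal values, which lack the many zeros and small counts of these shares. Python 3.11.15 was used with numpy 2.4.6, pandas 2.3.3 and scipy 1.17.1. No gene was tested, and genes are named as background only. The members, the comparisons and the marker names were chosen with earlier results of these data known. Alternatives changed the annotation column, the pooling of zones, the minima, the denominators, the cell and doublet filters, and left out experiments and stages.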

Additional observations from a re-analysis of the deposited data

How the results depend on the processing

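The results rest on 343 SMCs, with 1 pool of hearts for each stage, so a stage with 1 to 5 SMCs can move its share by the weight of a single cell. Of 276 values under alternatives other than leaving out a stage, 237 kept their direction and their side of the threshold. With 1 stage left out, 538 of 560 did. Both counts include values that could not change, such as those of a result that the left-out stage did not enter. Tests with too few stages to pass are counted too. The other annotation column held the same 182 and 161 SMCs, so its values, which are among the 276, could not change. It has no pericyte label in CD1, so that share of mural cells was not rerun there. The cause of the changes below was not tested.

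With at least 20 cells, the postnatal difference in the CD1 share of mural cells was 14.1 points (adjusted p = 0.0545, exact permutation), and the strain difference of the atrial-ventricular difference turned to 0.609 points. With no minimum, rho of the CD1 mural share against stage was 0.49 (adjusted permutation p = 0.0604), and the CD1 atrial-ventricular difference in it turned to 8.72 points. The CD1 LA-RA difference turned to 0.195 points without blood cells and 0.119 without blood and immune cells. With the stricter cell filter (at least 4000 UMIs and at most 20% mitochondrial UMIs), rho of CD1 detected genes turned to -0.0273 and the C57BL/6 LV-RV difference to -0.0426 points. The C57BL/6 mitochondrial rho turned to 0.00606 without the top 10% of doublet scores, and with at least 10 SMCs it turned to 0.0714 and that of UMIs to 0.0476.

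Without E9.5_P3, the CD1 rho against stage was 0.71 for the share of non-myocytes and 0.46 for that of mural cells, neither past the threshold. It was -0.25 for UMIs, -0.25 for genes and 0.96 for the mitochondrial percentage. The rho between strains turned to -0.31 and -0.14 for the 2 shares, and the strain difference of the atrial-ventricular difference was -4.31 points and passed (permutation p = 0.00858). Without P2_P9, the postnatal difference in the CD1 mural share was 19.3 points (adjusted p = 0.0524, exact permutation), LA-RA turned to 0.0799 points and LV-RV to 0.747 points, and the strain difference of the atrial-ventricular difference to 0.823 points. The rho of UMIs was then -0.50 and of genes -0.36, and the strain difference in the share of non-myocytes passed at 0.79 points. Without E10.5_P4, the C57BL/6 atrial-ventricular difference was -5.29 points over 3 stages, which cannot pass, and its difference between strains turned to 1.56 points. Without P5_P9, the C57BL/6 mitochondrial rho turned to 0.20.

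The rho between strains in the share of mural cells, 0.58 over 12 stages (permutation p = 0.0529), passed at 0.70 without E18_P1, at 0.76 without P2_P9 and at 0.69 in the ventricles alone. Leaving out 1 stage gave 0.45 to 0.70. It passed without E17.5, P1, P2, P3, P4, P7 or P9.

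Alternatives chosen after seeing the data were the ventricles alone, vascular endothelial cells as the denominator, and stages from E15.5 on. In the ventricles alone the C57BL/6 mitochondrial rho turned to 0.0909. From E15.5 on, postnatal differences were 1.95 points (CD1) and 1.82 points (C57BL/6) in the share of non-myocytes and 12.6 and 22.2 points in that of mural cells, and rho of the mural share was 0.49 and 0.59. None of these 6 passed after adjustment.

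Leaving out 1 stage gave CD1 LA-RA differences of -0.209 to 0.128 points (positive without E13.5 or P7), strain differences in the share of non-myocytes of 0.565 to 0.959 points (passed without P4), and strain differences of the atrial-ventricular difference of -0.965 to 0.00864 points (positive without CD1 P9). In C57BL/6 rho ran from -0.47 to 0.0167 for UMIs and from -0.42 to 0.0333 for mitochondrial percentage (each positive without P9), and from -0.85 to -0.58 for genes (passed without P7).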

Other observations

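The left ventricle had the higher SMC share of mural cells at every postnatal C57BL/6 stage. This pattern was noticed after the values were seen and was not tested. At the 8 postnatal C57BL/6 stages the SMC share of mural cells was higher in the LV than in the RV at 8 of 8, with 20 to 72.4% in the LV and 19.3 to 42.1% in the RV. The widest gap was at P4, where 21 of the LV mural cells were SMCs and 8 were pericytes (72.4% SMCs), against 6 and 11 in the RV (35.3%). The narrowest was at P1, with 20 and 19.3%, where the LV value came from 1 SMC among 5 mural cells. At P3, P5 and P9 the LV value came from 3 SMCs among 5, 7 and 8 mural cells. At the 5 embryonic C57BL/6 stages with at least 5 mural cells in each ventricle, the RV was higher at 5 of 5, but these too rest on few SMCs. At E13.5, E15.5 and E16.5 each ventricle held 0 to 2 SMCs, at E17.5 the values were 47.1 and 27.6%, and at E18.5 they were 22.2 and 20.5%. Pooled over embryonic stages, SMCs were 20.5% of RV mural cells (18 of 88, 95% interval 12.6 to 30.4%) and 14.9% of LV ones (18 of 121, 9.06 to 22.5%), and these intervals overlap.

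CD1 did not show this order. Over the 5 postnatal CD1 stages with at least 5 mural cells in each ventricle, the LV was higher at 2 and the RV at 3. Pooled over postnatal stages, SMCs were 45.6% of LV and 44.6% of RV mural cells in CD1 (67 of 147 and 41 of 92 cells), and 57.8 and 28.5% in C57BL/6 (59 of 102 and 45 of 158). The pooled C57BL/6 RV value leans on P1, whose RV sample held 46 of the 113 postnatal RV pericytes.

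The atria held too few SMCs for a comparison of atrial with ventricular SMCs. The 14 atrial SMCs of CD1 had a median of 7206 UMIs and 5.39% mitochondrial UMIs, against 7176 UMIs and 5.88% in the 168 ventricular ones. The 21 atrial SMCs of C57BL/6 had medians of 6469 UMIs and 4.57%, against 6027 UMIs and 5.03% in the 140 ventricular ones. In the RA, SMCs were 8 of 20 postnatal mural cells in CD1 and 15 of 29 in C57BL/6, and in the LA 2 of 27 and 6 of 31.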
